A study of Homo sapiens with 10 samples.

Results

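The genes for the receptors of lysophosphatidic acid (LPA), LPAR1 to LPAR6, and for autotaxin, ENPP2, were followed in BRAF-mutant melanoma cell lines before and after the acquisition of resistance to encorafenib, a BRAF inhibitor, combined with binimetinib, a MEK inhibitor. They were taken by gene symbol, 7 of the 57955 genes measured, and the set was chosen with earlier results of these data known. mRNA was sequenced from 5 sensitive lines, WM983A, WM278 and WM902B of primary tumour origin and WM983B and WM1617 of metastatic origin, and from the resistant derivative (E+BRes) of each, as 10 libraries. The resistant lines had been grown in both drugs at a dose that started at 1 nM and reached 200 nM within 3 to 5 months, and stayed at 200 nM, so that resistance and the presence of the drugs cannot be told apart. WM983A and WM983B came from the same patient, as did WM278 and WM1617, and each state of a line was a single library, so the lines served as the replicates and p-values measure the spread between lines that are not all independent.

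LPA is a small phospholipid present outside cells that acts as a growth factor and chemoattractant. Autotaxin is a secreted enzyme that makes it by removing choline from lysophosphatidylcholine. Its receptors couple to G proteins of the Gi, Gq and G12/13 classes and through them to ERK and calcium signalling. LPAR1, LPAR2 and LPAR3 are close relatives in the EDG family, while LPAR4, LPAR5 and LPAR6 belong to the more distant P2Y-like group. Autotaxin was first purified from melanoma cells as a motility factor.

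The libraries held 13693922 to 18033247 counts. The resistant WM983A library stood apart, since its expression profile over all genes that passed the filter correlated with its own sensitive line at r = 0.787 and with sensitive WM902B at r = 0.813. The labelled cell type was checked with 8 melanocyte markers, whose summed level was 429 to 4500 CPM, counts scaled to library size, in the sensitive lines. It was 4430 in resistant WM1617 and 925 in resistant WM278, but 89.6, 140 and 233 in resistant WM983A, WM983B and WM902B. SOX10, the factor that specifies melanocytes, had 84, 201 and 10 counts in the last of these, against 4629 to 5197 in their sensitive lines. In WM278 the sum rested mostly on SOX10 and S100B, at 5080 and 1480 counts in the sensitive and 4294 and 9807 in the resistant library. PMEL, MLANA, TYR and MITF had 70, 12, 9 and 171 counts in sensitive WM278 and 67, 6, 9 and 227 in resistant WM278. Markers of leukocytes summed to at most 5.27 CPM in any library.

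LPAR1 (ENSG00000198121, chr9:110873263-111038470), LPAR2 (ENSG00000064547, chr19:19623655-19628930) and LPAR3 (ENSG00000171517, chr1:84811602-84893206) lie on the minus strand of GRCh38, as do LPAR5 (ENSG00000184574, chr12:6618835-6635960) and LPAR6 (ENSG00000139679, chr13:48389567-48444704). LPAR4 (ENSG00000147145, chrX:78747709-78758714) is on the plus strand. All encode proteins. The 3 EDG-family receptors carried the differences described next, and the bases just upstream of a RefSeq transcript start of each are shown for that reason, 5′ to 3′ on the gene's strand, with motif matches in capitals.
LPAR1 upstream, chr9:111038471-111038720: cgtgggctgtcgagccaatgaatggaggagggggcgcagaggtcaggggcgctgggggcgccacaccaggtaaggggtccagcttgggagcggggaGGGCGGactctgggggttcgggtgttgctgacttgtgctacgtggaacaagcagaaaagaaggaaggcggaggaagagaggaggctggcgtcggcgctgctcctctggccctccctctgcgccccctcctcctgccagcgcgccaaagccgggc
LPAR2 upstream, chr19:19628221-19628470: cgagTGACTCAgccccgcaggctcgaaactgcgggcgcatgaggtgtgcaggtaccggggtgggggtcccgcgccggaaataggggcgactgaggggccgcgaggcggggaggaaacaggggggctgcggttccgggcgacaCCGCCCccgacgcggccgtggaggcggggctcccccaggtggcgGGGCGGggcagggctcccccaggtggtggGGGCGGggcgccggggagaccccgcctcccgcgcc
LPAR3 upstream, chr1:84893207-84893456: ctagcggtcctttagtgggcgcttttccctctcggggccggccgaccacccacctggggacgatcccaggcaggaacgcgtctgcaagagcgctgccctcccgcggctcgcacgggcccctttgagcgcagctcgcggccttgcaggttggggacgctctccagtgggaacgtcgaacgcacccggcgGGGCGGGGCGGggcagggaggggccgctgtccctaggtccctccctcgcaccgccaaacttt
The sequences are from RefSeq for GRCh38.p14. LPAR1 has 6 such starts, and the start shown is the one at the GENCODE gene start, while the start of LPAR2 lies inside its GENCODE gene span. The windows were searched on both strands for 6 short motifs. These were the E-box CACGTG, the E-box variant CATGTG that MITF also binds, the TEAD motif GGAATG, the AP-1 motif TGANTCA, the GC box GGGCGG and the TATA box TATAAA. The LPAR2 window held 3 matches to GGGCGG and 1 to TGANTCA, LPAR3 held 2 overlapping matches to GGGCGG, and LPAR1 held 1. GGGCGG is present in 42.6% of all 35116 RefSeq windows of this length and TGANTCA in 6.57%. Windows were found for 6 of the 7 genes, and LPAR5 held 2 matches to GGAATG, which 11.9% of windows contain. LPAR4 held 1 match each to GGGCGG and TATAAA, LPAR6 held none, and the other windows of LPAR1 held 0 to 5 matches to GGGCGG and, in 1 window, a match to TATAAA. These matches describe the letters and show no binding.

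LPAR1, a receptor known to drive migration toward LPA, was more abundant in every resistant line than in its sensitive parent. LPAR2, which binds scaffold proteins through its C-terminal tail, was also higher in every line but WM1617, where the sign of its ratio depended on the scaling. LPAR3, which prefers unsaturated LPA species, was lower in every line. For LPAR1 in WM1617 and LPAR3 in WM278 the difference was within counting error. LPAR6 and ENPP2 were higher in some lines and lower in others, and LPAR4 and LPAR5 were close to the limit of detection in most libraries.

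**Figure D1:**
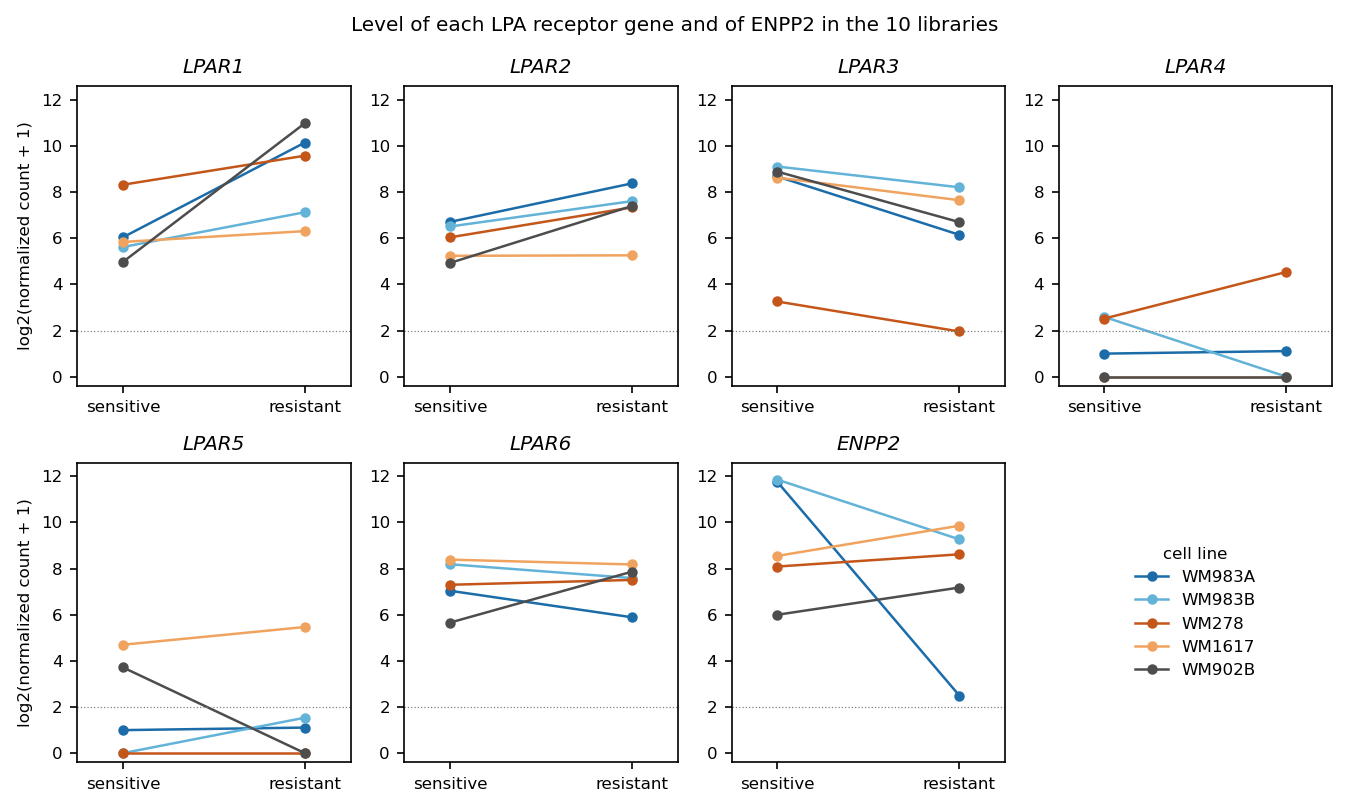
Level of each gene as log2 of the TMM-normalized count with 1 added (vertical axis) in the sensitive and the resistant library (horizontal axis). Each point is 1 library and each line joins the 2 libraries of a cell line; the dotted line is the level of 3 normalized counts. LPAR1 slopes upward and LPAR3 downward in all 5 lines, LPAR2 slopes upward in all but WM1617, and ENPP2 goes from 3497 to 4.66 normalized counts in WM983A.

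In sensitive WM983A and WM983B LPAR1 stood at 64.8 and 48.2 normalized counts, and the other sensitive lines had 319.6 (WM278), 56.3 (WM1617) and 30.4 (WM902B). In the resistant lines it stood at 1134, 139, 765, 78.2 and 2034 in the same order. Sensitive WM278 was already above resistant WM983B and WM1617, so the groups overlapped. The ratio of resistant to sensitive was 66.9-fold in WM902B, 17.5-fold in WM983A, 2.88-fold in WM983B and 2.39-fold in WM278. In WM1617 it was 1.39-fold, with a 95% exact binomial interval on the log2 scale of -0.04 to 0.99 that includes no difference. Such intervals cover counting error only.

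Over the 5 lines LPAR1 rose by a log2 fold change of 3.00 ± 0.967 (SE, n = 5 per group; edgeR quasi-likelihood test, unadjusted p = 0.0107, adjusted p = 0.630). An exact permutation test of the log2 levels, two-sided, gave p = 0.0476, a level that 6.17% of genes tested reached in either direction, and 0.00794 is the smallest p that the 252 splits allow. With a line left out, which allows fewer splits, the permutation test gave p = 0.143 without WM983A and p = 0.171 without WM902B. The permutation p was 0.0571 without WM983B or without WM1617, and 0.0286 without WM278. Without both WM902B libraries the log2 fold change was 2.11 (edgeR, unadjusted p = 0.0626), and without both WM983A libraries it was 2.72 (edgeR, unadjusted p = 0.0469). Without both WM278 libraries it was 4.08 (edgeR, unadjusted p = 0.00323), and without sensitive WM278 alone 4.04 (edgeR, unadjusted p = 0.00180). With the cell line as a block it was 2.53 (edgeR, unadjusted p = 0.0283).

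LPAR2 stood at 104, 90.4, 64.7, 36.8 and 29.4 normalized counts in sensitive WM983A, WM983B, WM278, WM1617 and WM902B. The resistant libraries had 332, 194, 162, 37.3 and 167. The groups overlapped, since resistant WM1617 stood below sensitive WM983A, WM983B and WM278. The ratio was 5.70-fold in WM902B, 3.20-fold in WM983A, 2.50-fold in WM278 and 2.15-fold in WM983B, and 1.01-fold in WM1617, with a log2 interval of -0.66 to 0.71. LPAR2 rose by 1.45 ± 0.551 on the log2 scale (SE, n = 5 per group; edgeR, unadjusted p = 0.0238, adjusted p = 0.656), and the exact permutation test gave p = 0.0714. Leaving out WM902B (edgeR, unadjusted p = 0.0705) or WM278 (edgeR, unadjusted p = 0.0564) ended the call. So did leaving out a single library, resistant WM983A (edgeR, unadjusted p = 0.0711), sensitive WM1617 (edgeR, unadjusted p = 0.0558) or sensitive WM902B (edgeR, unadjusted p = 0.0549). With the cell line as a block, which compares each resistant line with its own sensitive line, LPAR2 was called at 1.33 (edgeR, unadjusted p = 0.0109, adjusted p = 0.462) and stayed called in 5 of 5 fits with a line left out, at 1.06 to 1.64.

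LPAR3 was the most abundant of the EDG-family receptors in 4 of the 5 sensitive lines. It stood at 409.9, 553, 394 and 474 normalized counts in sensitive WM983A, WM983B, WM1617 and WM902B, but at 8.56 in WM278. The matching resistant libraries had 69.9, 295, 199.8, 103 and, for WM278, 2.90. Over all 5 lines the groups overlapped, since WM278 was below every other line in both states. The level was 5.87-fold lower in WM983A, 4.62-fold lower in WM902B, 1.97-fold lower in WM1617 and 1.87-fold lower in WM983B. In WM278 9 counts stood against 3, a log2 interval of -4.08 to 0.44.

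The comparison of the groups gave LPAR3 a log2 fold change of -1.45 ± 1.02 (SE, n = 5 per group; edgeR, unadjusted p = 0.183, adjusted p = 0.804), and the exact permutation test gave p = 0.365. With the cell line as a block the log2 fold change was -1.64 ± 0.338 and the call was made (edgeR, unadjusted p = 0.00202, adjusted p = 0.462). The blocked call held in 5 of 5 fits with a line left out, with log2 fold changes of -1.86 to -1.38 and unadjusted edgeR p of 0.00332 to 0.0101. Without WM278 the unblocked test called it too (log2 fold change -1.44, edgeR, unadjusted p = 0.0120).

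Thus LPAR1 and LPAR2, 2 of the 7 genes, were called higher at a fold of at least 2 and an unadjusted p of at most 0.05, against 3.53% of the 17287 genes tested, and none was called lower, against 0.885%. With the block LPAR1 and LPAR2 were called higher, against 3.48% of genes, and LPAR3 lower, against 2.05%. Of the 7, 5 passed the filter on low counts. No gene of the 17287 passed an adjusted p of 0.05 in edgeR, with or without the block. DESeq2 without the block called 0.607% of genes at an adjusted p of at most 0.05 and none of the 7, where LPAR1 had an adjusted p of 0.0640. DESeq2 with the block called 2.95% of genes, among them LPAR3 (adjusted p = 0.00452), LPAR1 (adjusted p = 0.0172) and LPAR2 (adjusted p = 0.0420). Of all genes tested, 5.77% were higher in all 5 lines, as LPAR1 and LPAR2 were (LPAR2 in WM1617 was at a log2 ratio of 0.02, or -0.03 scaled by total counts), and 5.30% lower in all 5, as LPAR3 was. The study had picked LPAR1, LPAR2 and the scaffold gene SLC9A3R2 as upregulated from these libraries, under a pathway of LPA receptor events. It also listed TAGLN, TPM1 and COL1A1 as upregulated and SPHK1 as downregulated, which are described further on with SLC9A3R2. The direction of these genes here is therefore not independent evidence.

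**Figure D2:**
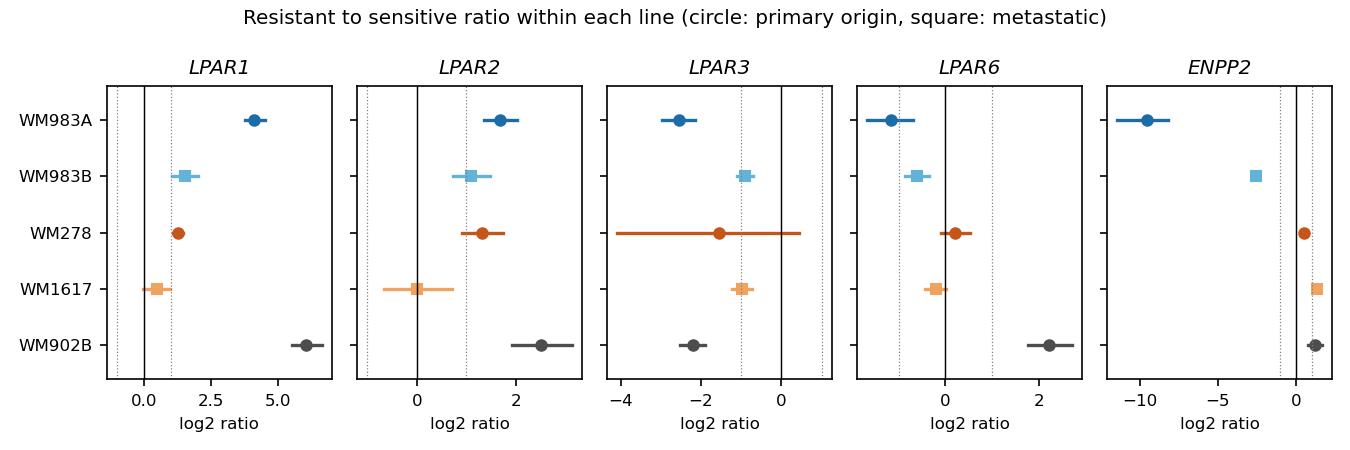
log2 of the resistant to sensitive ratio of normalized counts (horizontal axis, each panel with its own range) in each line (vertical axis) for the 5 genes that passed the filter on low counts. Bars are 95% exact intervals of counting error, dotted lines mark a 2-fold difference, circles are lines of primary and squares of metastatic origin. LPAR1 is 66.9-fold higher in WM902B and 1.39-fold higher in WM1617, and ENPP2 is lower in WM983A and WM983B and higher in the other lines.

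The opposite courses of LPAR1 and LPAR3 were set side by side within each library, per kilobase of exon. The ratio of LPAR1 to LPAR3 was 0.0548 to 0.135 in 4 sensitive lines and 31.9 in sensitive WM278. In the resistant lines it was 13.9 in WM983A (95% interval 10.7 to 18.3) and 16.9 in WM902B (13.8 to 20.9), so that LPAR1 had passed LPAR3. It was 0.403 in WM983B (0.328 to 0.492) and 0.334 in WM1617 (0.259 to 0.429), where LPAR3 still led LPAR1. In resistant WM278 it was 225 (76.8 to 1100), with LPAR3 at 3 counts.

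Of the summed FPKM of the 6 receptors, the count scaled to exon length and library size, LPAR3 made up 58.8% in sensitive WM983A, 58.7% in WM983B, 50% in WM1617 and 80.2% in WM902B. LPAR1 led in sensitive WM278, with 55.8%. After resistance LPAR1 led in WM983A with 65.4%, in WM278 with 64.5% and in WM902B with 78.0%. LPAR3 kept the lead in WM983B with 36.8%, while LPAR6 led in WM1617 with 39.1%, against 33.2% for LPAR3. LPAR6 itself stood at 334 normalized counts in sensitive and 289 in resistant WM1617. Its share may hold reads from RB1, the gene in which it lies. The summed receptor level went from 11 to 41.6 FPKM in WM902B, from 13.0 to 27.7 in WM983A and from 9.13 to 18.9 in WM278, but from 17.6 to 15.0 in WM983B and from 14.7 to 11.2 in WM1617. The lines with a higher sum were those of primary origin, a difference that was not tested.

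**Figure D3:**
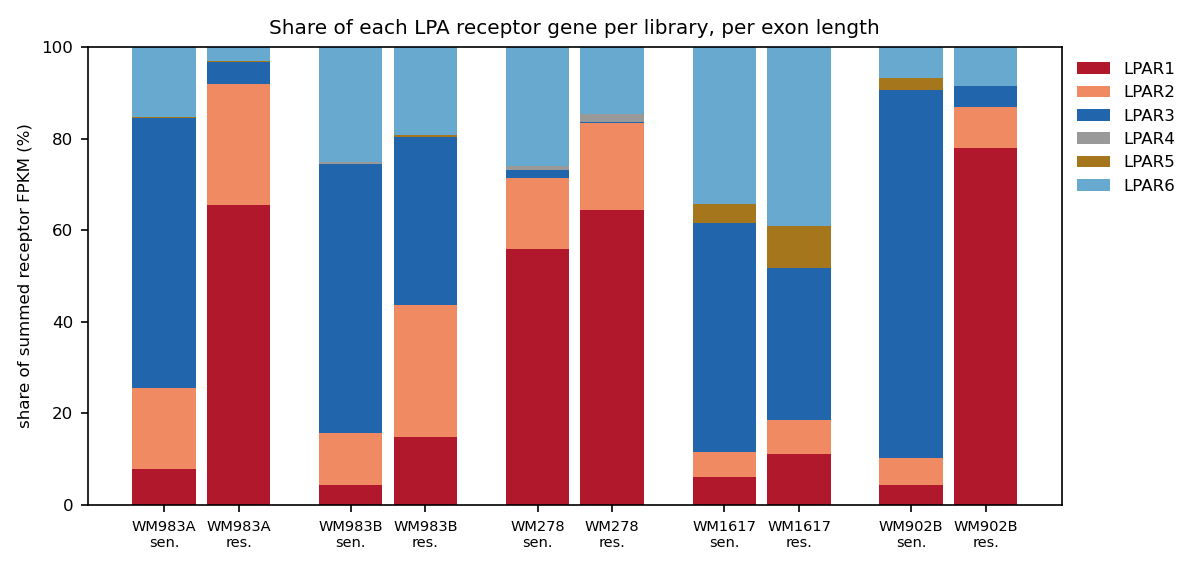
Share of each receptor gene in the summed FPKM of LPAR1 to LPAR6 (vertical axis, %) in each library (horizontal axis; sen., sensitive; res., resistant), 1 stacked bar per library. LPAR3 fills 50% to 80.2% of the bar in all sensitive lines but WM278, and LPAR1 fills 64.5% to 78.0% in resistant WM983A, WM278 and WM902B.

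LPAR6, a P2Y-like receptor known for its role in hair growth, showed no shared direction. It stood at 131, 290.3, 157, 334 and 49.7 normalized counts in sensitive WM983A, WM983B, WM278, WM1617 and WM902B. The resistant libraries had 58.2, 191, 182, 289 and 233. WM902B was 4.69-fold higher and WM983A 2.24-fold lower, and the remaining lines were within 1.52-fold. The log2 fold change was -0.01 ± 0.535 (SE, n = 5 per group; edgeR, unadjusted p = 0.984), and its sign turned under several alternatives.

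LPAR6 lies in RB1, on the opposite strand, and shares 0 exon bases with it. Whether reads were counted by strand is not stated, so reads from RB1 introns and from LPAR6 could not be separated with certainty. RB1, the retinoblastoma cell cycle gene, stood at 871 to 1587 normalized counts, with a log2 fold change of -0.25 ± 0.193 (edgeR, unadjusted p = 0.228). LPAR6 and RB1 correlated at r = 0.752 over the 10 libraries, which share their cell lines. The r with RB1 was 0.792 for ENPP2, 0.48 for LPAR3, -0.59 for LPAR2 and -0.652 for LPAR1, all on other chromosomes. What part reads from RB1 introns had in the value for LPAR6 was not tested.

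LPAR5 and LPAR4 failed the filter on low counts. LPAR5, a receptor also found on immune cells, had 23 counts in sensitive and 50 in resistant WM1617, and 12 in sensitive WM902B against 0 in resistant WM902B, at least 3.95-fold lower against a floor of 3 counts. The other 6 libraries held 0 to 2 counts. LPAR4 had 5 counts in sensitive WM278 and 23 in resistant WM278, a ratio of 4.68-fold with a log2 interval of 0.80 to 3.98, and 5 in sensitive WM983B against 0 in its resistant line. Each of the other libraries held 0 or 1 count, which does not show that the gene was silent. Without the filter the edgeR p was 0.839 for LPAR5 and 0.484 for LPAR4.

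ENPP2 (ENSG00000136960, chr8:119557086-119673453, minus strand) had the widest range of the 7 genes. It stood at 3497 and 3715 normalized counts in sensitive WM983A and WM983B, which share a patient, and at 271, 373 and 62.8 in WM278, WM1617 and WM902B. Their resistant derivatives had 4.66, 618, 394, 931 and 144. ENPP2 was thus 751-fold lower in WM983A, from 3506 counts to 4 (log2 interval -11.43 to -8.19), and 6.02-fold lower in WM983B. It was 2.50-fold higher in WM1617, 2.29-fold higher in WM902B and 1.45-fold higher in WM278, all with intervals above no difference.

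The log2 fold change of ENPP2 over the lines was -1.92 ± 1.23 (SE, n = 5 per group; edgeR, unadjusted p = 0.149, adjusted p = 0.783), and the exact permutation test gave p = 0.365. With the block it was -0.72 (edgeR, unadjusted p = 0.658). Without WM983A it was -1.09 unblocked (edgeR, unadjusted p = 0.363), and the mean difference of log2 levels went from -1.76 to 0.11. Of the exon bases of ENPP2, 2.41% are shared with the pseudogene CYCSP23, which could take a small part of its reads.

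In order of mean FPKM over the 10 libraries, ENPP2 stood at 9.81, LPAR1 at 7.45, LPAR3 at 4.68, LPAR6 at 2.90, LPAR2 at 2.70, LPAR5 at 0.201 and LPAR4 at 0.0476. LPAR2 was above LPAR5 in 9 of 10 libraries. ENPP2 was above LPAR1 in 6 libraries, 4 of them sensitive, and LPAR1 above LPAR3 in 4, 3 of them resistant. LPAR3 exceeded LPAR6 in 6 libraries, LPAR6 exceeded LPAR2 in 5 and LPAR5 exceeded LPAR4 in 6, so over all libraries none of these neighbours kept its order. The order also turned between the states, with LPAR3 at 6.86 and LPAR1 at 1.66 mean FPKM in the sensitive lines and LPAR1 at 13.2 and LPAR3 at 2.5 in the resistant ones.

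By line, at a ratio of at least 2, 4 genes were higher and 2 lower in WM902B, where 15.4% of all genes tested were higher and 12% lower. In WM983A 2 were higher and 3 lower, against 16.9% and 19.3%. WM983B had 2 higher and 2 lower, against 16.2% and 11.2%, and WM278 had 3 higher and 1 lower, against 12.1% and 7%. In WM1617, where 2.83% of genes were higher and 3.8% lower, ENPP2 alone was higher and none was lower. The shares are over genes that passed the filter, whereas the counts include LPAR4 (WM983B, lower, and WM278, higher) and LPAR5 (WM902B, lower), which did not.

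The melanocyte markers moved alongside some of these values. Of the 8, TYRP1 was called lower, or TYR with the block. Their sum was lower after resistance in WM983A, WM983B and WM902B, in which LPAR3 was 1.87-fold to 5.87-fold lower, but LPAR3 was also 1.97-fold lower in WM1617, where the sum was 4500 and 4430 CPM. LPAR3 and MITF, the melanocyte master regulator, correlated at r = 0.821 over the 10 libraries. Both genes were lowest in WM278 in both states, with LPAR3 at 9 and 3 counts and MITF at 171 and 227. The log2 ratio of MITF was -3.49, -2.84, 0.43, -0.25 and -0.87 in WM983A, WM983B, WM278, WM1617 and WM902B. That of LPAR3 was -2.54, -0.90, -1.29, -0.98 and -2.20 in the same order. Fibroblast markers reached 1690 CPM in resistant WM902B, with the highest LPAR1, but 8.07 in resistant WM983A, with the next highest. Of these 7 markers COL1A1 and PDGFRB were called higher, and COL1A1 alone with the block. Markers of keratinocytes summed to 20.9 to 87 CPM, with KRT10 at 269 to 1120 counts, TP63 at 308 counts in resistant WM983B and KRT1 at 0 in all libraries, and those of endothelial cells to 0.23 to 53.6 CPM, the latter led by KDR in sensitive WM278. In bulk libraries fewer cells of a kind and less RNA per cell cannot be told apart, and the part of these markers in the results was not tested.

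The genes whose levels over the 10 libraries were most like each gene were found among 14691 genes with standard symbols, by Pearson's r on log2 levels. For LPAR1 these were HS6ST1 (r = 0.979), PGDP1 (0.959) and TRIM16 (0.955), and UCN2 (-0.963), MATN1 (-0.960) and ADGRG1 (-0.954) were the most opposed. LPAR2 was closest to LRRC37A3 (0.979), JUP (0.970), which encodes plakoglobin, and GADD45B (0.961), and most opposed to CTDSPL2 (-0.970), USP6NL (-0.968) and SPOUT1 (-0.959). LPAR3 was closest to MELTF (0.981), the melanotransferrin gene, SMYD4 (0.972) and FAM225A (0.965), and most opposed to NBPF3 (-0.978), FAM120B and HCG11 (both -0.958). For LPAR6 MIF-AS1 (0.950) and UBE2L3 (0.919) were among the closest, and EXOSC6 (-0.909) and SMG9 (-0.897) among the most opposed. ENPP2 was closest to SEC24A (0.952), RPL7L1P9 (0.949) and DPM1 (0.947), and most opposed to CDC42BPB (-0.958), COQ8A (-0.955) and FAM86EP (-0.953). With 10 libraries and so many genes, values of this size are a description. Among themselves, LPAR1 and LPAR2 correlated at r = 0.734 and LPAR1 and LPAR3 at r = -0.675.

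The rest of the pathway was counted in lists. Of 67 other genes of the pathway and its relatives, 52 passed the filter, and 6 were called, or 11 with the cell line as a block, where 4.42% and 5.53% of all genes tested were called in either direction. DESeq2 with the block called 15, against 8.62% of all genes. The median log2 fold change of all genes was 0.03. These totals include 1 list that is not described here, in which ARHGEF11, a guanine nucleotide exchange factor that G12/13 activates, was called lower (log2 fold change -1.16 ± 0.400, edgeR, unadjusted p = 0.0154). That call was lost with the block (log2 fold change -1.09, edgeR, unadjusted p = 0.0525) and without WM983A, WM983B or WM902B.

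Of 11 genes that make or break down LPA, 8 passed the filter, none was called higher or lower, and the median log2 fold change was -0.10. PLA1A, a secreted phospholipase that yields lysophosphatidylserine, was lower in every line, as 5.30% of all genes tested were. It had 170, 50, 9, 284 and 537 counts in sensitive WM983A, WM983B, WM278, WM1617 and WM902B. In the resistant ones PLA1A had 8, 3, 0, 220 and 23. Its log2 fold change was -2.24 ± 1.41 (edgeR, unadjusted p = 0.142), and with the block it was called at -3.51 (edgeR, unadjusted p = 0.00252, adjusted p = 0.462). The lipid phosphatases that degrade LPA, PLPP1, PLPP2 and PLPP3, had the highest levels in the list, at 11.8, 8.45 and 7.66 mean FPKM, with log2 fold changes of 0.94, -0.15 and -0.22 that did not pass. LIPH failed the filter. Its resistant against sensitive counts were 96 and 0 in WM983A, 35 and 4 in WM983B and 172 and 48 in WM278. They were 0 and 1 in WM902B and 0 in both WM1617 libraries. With the block and without WM902B it was called higher. AGK had 3829 counts in resistant and 679 in sensitive WM1617, but was lower in 3 lines (log2 fold change 0.46, edgeR, unadjusted p = 0.452). LIPH and AGK were named after their values were seen. Of the ENPP family, relatives of autotaxin, 3 of 6 passed and none was called without the block. ENPP4 was called lower with it (log2 fold change -2.63, edgeR, unadjusted p = 0.0187), on counts of 79, 63 and 39 against 2, 14 and 13 in WM983A, WM983B and WM278 and 0 in the other lines. Without WM983B or WM278 ENPP4 did not pass the filter and was not tested. The blocked call of PLA1A held with any line left out.

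Sphingosine 1-phosphate (S1P) is a related lipid with receptors of the same EDG family. Of its 10 receptors and enzymes 8 passed and none was called without the block. SPHK1, which makes S1P, was called lower with the block (log2 fold change -1.20, edgeR, unadjusted p = 0.0160), against -0.91 without it (edgeR, unadjusted p = 0.307), and was not called without WM902B. S1PR3 had 1003 counts against 43 in WM983A and 966 against 23 in WM983B, but 30 against 67 in WM1617, and did not pass (log2 fold change 1.94, edgeR, unadjusted p = 0.116). It was named after its values were seen. Among 6 P2Y-like lipid receptors GPR55, the receptor of lysophosphatidylinositol, alone passed the filter. It fell by 1.66 ± 0.671 on the log2 scale (SE, edgeR, unadjusted p = 0.0314, adjusted p = 0.679). It was lower in 5 of 5 lines, as 5.30% of all genes tested were, but was not called without WM983A, WM983B or WM278.

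Downstream, none of the 7 G protein genes was called, of which GNAI2 was the most abundant (41.6 mean FPKM) with a log2 fold change of -0.25. GNAI1 had 1498 counts against 264 in WM983A, 677 against 261 in WM983B and 1843 against 238 in WM902B. In WM278 it had 1457 against 1568 and in WM1617 452 against 514. It did not pass (log2 fold change 1.11, edgeR, unadjusted p = 0.0994) but was called higher without WM278. GNAI1 was named after its values were seen. Of 5 proteins that bind the tail of LPAR2, SLC9A3R2, which encodes the scaffold NHERF2, rose by 1.59 ± 0.577 on the log2 scale (edgeR, unadjusted p = 0.0193, adjusted p = 0.645) and was higher in 5 of 5 lines, with 1502 counts against 252 in WM983A and 246 against 171 in WM1617. The call was lost without WM983A, with or without the block, and 5.77% of all genes tested were higher in all 5 lines.

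The actin and SRF axis, which LPA is known to activate through the MRTF cofactors, held 3 of the 6 calls, or 6 of the 11 with the block. Of 12 genes 10 passed, and 3 were called higher, or 6 with the block, against 3.53% and 3.48% of all genes tested. None was called lower, and the median log2 fold change was 1.34. The list was chosen with earlier results of these data known, so these counts are not independent evidence. The genes called in both fits were TAGLN (2.87 ± 0.914, edgeR, unadjusted p = 0.00992), VCL, which encodes vinculin (1.28 ± 0.396, edgeR, unadjusted p = 0.00850), and ANKRD1 (3.19 ± 1.3, edgeR, unadjusted p = 0.0324). TPM1, CYR61 and CTGF were added by the block, at 1.5, 2.47 and 1.37 (edgeR, unadjusted p = 0.0119, unadjusted p = 0.00185 and unadjusted p = 0.00549). CYR61 and CTGF, also known as CCN1 and CCN2 and targets of YAP as well, were higher in 5 of 5 lines. Of all genes tested, 5.77% were higher in all 5. The other called genes were each lower in 1 line. These were TAGLN in WM983A (log2 ratio -0.10), VCL and TPM1 in WM1617 (-0.27 and -0.15) and ANKRD1 in WM278 (-1.11). CYR61 went from 6 to 23 counts in WM1617 and from 1838 to 16955 in WM983B. SRF itself and its cofactors MKL1 and MKL2 were not called, at log2 fold changes of 0.13, 0.41 and 0.42. Without WM983A 1 gene of this list, TAGLN, was called, or 4 with the block. Unblocked, TAGLN was not called without WM278, nor ANKRD1 without WM983B or WM902B, and the log2 fold change of TAGLN was 1.18 without resistant WM278 alone. Blocked, TAGLN, VCL and ANKRD1 were not called without WM983B or without WM902B, where TPM1, CYR61 and CTGF were.

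**Figure D4:**
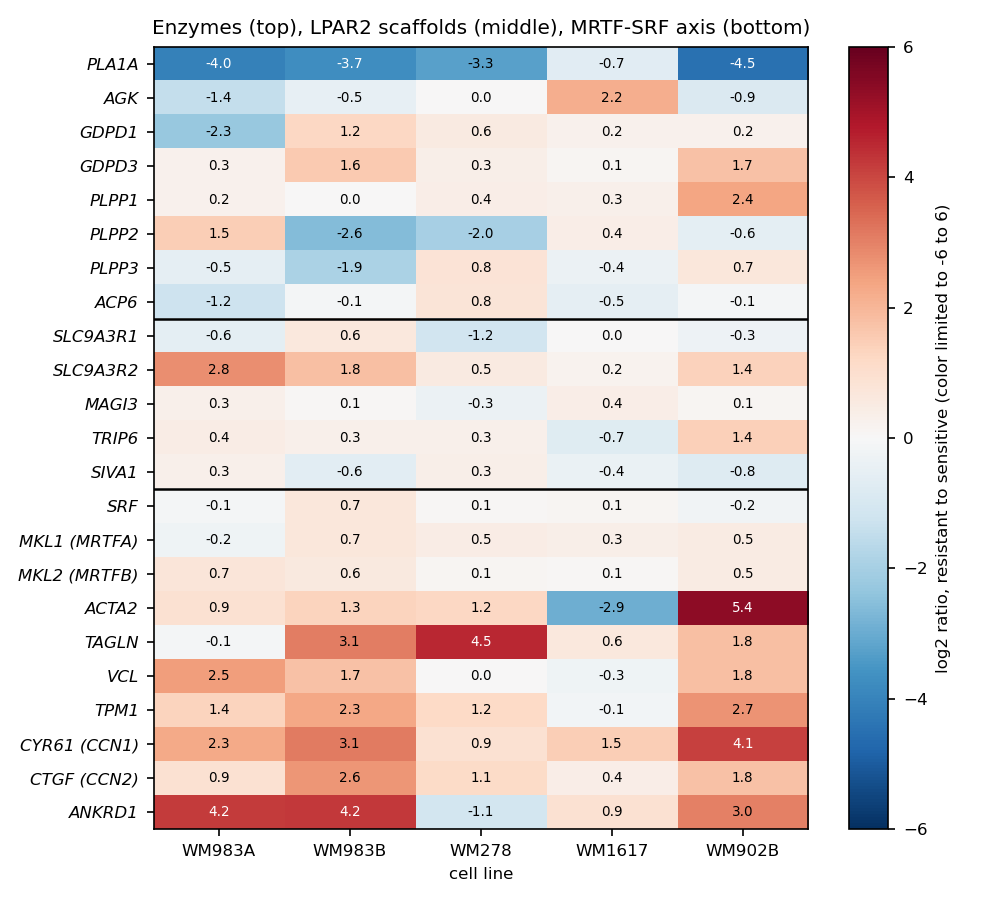
log2 ratio of resistant to sensitive normalized counts with 1 added, printed and colored (red, higher; blue, lower), for the genes that passed the filter (vertical axis) in each cell line (horizontal axis), in 3 lists separated by black lines. PLA1A is lower and SLC9A3R2, CYR61 and CTGF are higher in all 5 lines, with the smallest differences for most of these in WM1617.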

How the data were processed

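mRNA of 5 melanoma cell lines in 2 states, as 10 libraries, was selected with oligo-dT and read from a single end over 75 cycles. The authors aligned with HISAT2 to GRCh38 and used StrandNGS for statistics. The counting tool, versions, gene annotation and strand setting are not given in the sources used here. The raw values deposited by the authors are expected counts (24.1% of those above 0 are whole) and were rounded. The normalized values deposited are log2 ratios to the sensitive library of the line, and served only to recover 455 values of sensitive WM983B that a spreadsheet had turned into dates, none of them in the gene lists.

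Counts were analysed in R 4.3.3 with edgeR 4.0.16 (filterByExpr, TMM, glmQLFTest, 5 against 5 libraries on all genes, two-sided), DESeq2 1.42.0 and limma 3.58.1. Permutation tests, ratios and figures were made in Python 3.11.15. The study calls its lines pairs but states no pairing for its moderated test. The block by cell line takes its pairing from the derivation of each resistant line, and deviations from the group means correlated within lines at -0.06 (WM983A) to 0.67. A gene was called at a fold of at least 2 and an unadjusted p of at most 0.05, with the Benjamini-Hochberg p over all genes beside it. Normalized counts are TMM-scaled, and log2 levels have a pseudocount of 1. Fold ratios within a line have none. CPM and FPKM were computed from the counts and, for FPKM, GENCODE exon lengths. A level of 3 counts was the floor, and intervals cover counting error only. Fits were tested on simulated data.

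The genes and lists were chosen with earlier results of these data known. Named are the 7 genes, called genes and up to 3 abundant genes of each list, the genes of most similar and most opposed level, overlapping genes and markers. S1PR3, LIPH, AGK and GNAI1 were named in addition, after their values were seen. Totals in place of TMM, removal of the date genes, and the block with a line left out were added after seeing the data. Not every abundant gene the rule allows is printed, and some genes and 1 list are not reported here apart from its called gene.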

Additional observations from a re-analysis of the deposited data

Results flagged for a closer look

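Among 14 groups of 5 libraries, 3 held a library far from the others on the scale of log2 normalized count with 1 added, where chance flags about 1 in 20 groups. LPAR3 was at 3.26 in sensitive WM278, and the nearest sensitive line was at 8.63. LPAR4 was at 4.54 in resistant WM278, with the next resistant line at 1.11. LPAR5 was at 5.47 in resistant WM1617, with the next at 1.54. The LPAR4 and LPAR5 values rest on 23 and 50 counts.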

How the results depend on the processing

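The count of 2 genes called among the receptors and ENPP2 was 1 with limma-voom and 0 to 2 with a line or library left out, 0 without WM902B. The 6 pathway genes called became 3 with at least 10 counts required in every library, 11 with the replicate block, 15 with DESeq2 and the block, and 1 to 12 with a line or library left out, 1 without WM983A and 12 without resistant WM1617. The block changed the calls of LPAR3 and the pathway genes named with it, and no other call among the 7 genes. LPAR1 stayed called with the block in 4 of 5 fits with a line left out, but not without WM983A (edgeR, unadjusted p = 0.0804). The exact permutation test called 1 of the 7, LPAR1, and 0 to 2 with a line left out. These were LPAR1 and LPAR3 without WM278, LPAR2 alone without WM1617, and none without any other line. The within-line ratios of at least 2-fold numbered 21 of 35, 1 of them at or under 3 counts in both libraries, and 16 to 20 without WM983A or WM1617. LPAR6 reversed, at 0.01 with the stricter filter, 0.04 with the block in edgeR and in DESeq2, 0.12 with limma-voom, 0.48 in primary lines only and -0.33 to 0.27 with a line or library left out. With a line or library left out TPM1 ranged from -0.05 to 3.26 and CTGF from -0.19 to 3.36, both below 0 without resistant WM278. The mean difference of log2 levels turned for LPAR4 with a pseudocount of 5 (0.10), and ranged with a line left out from -0.62 to 0.53 for LPAR4, -0.71 to 0.61 for LPAR5, -0.44 to 0.40 for LPAR6 and -2.54 to 0.11 for ENPP2. The causes were not tested. Counts under 10, as for LPAR4 and LPAR5 in most libraries and LPAR3 in WM278, limit what can be said of these genes.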
